A study of Homo sapiens with 12 samples.

Results

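The 38 genes described here encode the core machinery of autophagy, from the kinase complex that starts an autophagosome to the proteins that fuse it with the lysosome. They were listed by symbol from what their products do, but with earlier results of these data known, so the list is not independent of the data. All 38 had a probe set that the platform annotation assigns to exactly 1 gene symbol, and where a gene had several of these, the brightest by its mean of 12 arrays was used. Of the 38, 36 reached 5 log2 units on at least 3 arrays and were tested among 10050 genes. ULK2, a kinase related to ULK1, and ATG4D, a protease of the ATG4 family, did not reach that level on 3 arrays.

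Total RNA of HK-2 cells, an immortalised line of human kidney proximal tubule epithelium, was measured on Affymetrix 3′ expression arrays. Cells received Ra or, as control, the vehicle, and were harvested after 12 h or 48 h, with 3 arrays in each of the 4 groups. The labels call the replicates biological, and all groups come from this single line in the same medium with EGF, hydrocortisone, insulin, transferrin and selenite. The design text places the series in a search for signatures of kidney toxicity across several compounds. The sources used here give neither the nature of Ra nor its dose.

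Autophagy encloses cytoplasm, damaged organelles or protein aggregates in a double membrane that later fuses with the lysosome. The ULK complex starts the process, the class III PI3-kinase complex marks the membrane with a lipid, and 2 ubiquitin-like conjugation systems attach ATG8 proteins such as LC3 to it, where cargo receptors dock. In the kidney the pathway is known for keeping proximal tubule cells intact under stress and injury, and many of its genes are also controlled at the level of transcription.

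For 3 members, GABARAPL1, MAP1LC3B and SQSTM1, the 250 bases before the start in RefSeq's GRCh38.p14 are shown. They are in lower case with a searched motif in capitals. GABARAPL1 lies at chr12:10212627-10212876 on the plus strand, and its capitals mark TGACGTCA, the cAMP response element. MAP1LC3B lies at chr16:87392086-87392335 on the plus strand, and its capitals mark TGACNNNGC, the core of the antioxidant response element. SQSTM1 lies at chr5:179806143-179806392 on the plus strand, the first of 3 starts listed for it, and held none of the motifs searched.
GABARAPL1: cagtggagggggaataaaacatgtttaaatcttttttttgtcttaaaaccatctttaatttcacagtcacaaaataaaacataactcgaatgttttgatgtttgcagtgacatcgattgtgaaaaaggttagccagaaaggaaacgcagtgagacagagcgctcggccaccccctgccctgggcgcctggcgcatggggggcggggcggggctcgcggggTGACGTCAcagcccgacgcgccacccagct
MAP1LC3B: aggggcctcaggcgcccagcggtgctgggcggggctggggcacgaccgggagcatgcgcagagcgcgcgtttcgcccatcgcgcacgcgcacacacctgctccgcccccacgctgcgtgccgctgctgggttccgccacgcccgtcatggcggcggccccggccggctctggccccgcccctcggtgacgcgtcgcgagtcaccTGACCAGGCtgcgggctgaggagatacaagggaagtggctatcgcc
SQSTM1: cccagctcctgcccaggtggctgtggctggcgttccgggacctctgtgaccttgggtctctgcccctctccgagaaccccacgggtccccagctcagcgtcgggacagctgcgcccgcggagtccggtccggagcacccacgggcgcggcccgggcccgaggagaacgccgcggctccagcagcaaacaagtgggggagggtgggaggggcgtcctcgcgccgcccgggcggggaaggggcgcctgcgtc

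RefSeq promoter entries were found for 33 of the 38 genes, 41 entries in all, and 6 motifs were searched on both strands. TGACNNNGC was in 7.3% of the members' entries (ATG101, CALCOCO2 and MAP1LC3B) in 10.9% of all 35116 entries and in 11.9% of the 12229 entries of tested genes. CACGTG, the E-box read by TFEB and its relatives, was in 4.9% (ATG14 and ATG3) against 6.3% and 8.7%. The longer CLEAR element, which contains CACGTG, was in 0% against 0.3% and 0.6%. GTAAACA, read by FOXO factors, was in 2.4% (CALCOCO2) against 3.0% and 2.2%, and TGATGNAA, the composite element of C/EBP and ATF factors, was in 0% against 3.1% and 1.6%. TGACGTCA, added to the search after the promoters had been read, was in 2.4% (GABARAPL1) against 1.6% and 2.6%, so its order depends on the entries compared, as does that of GTAAACA. A match says only that these letters stand in the window.

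Values are the authors' GCRMA values on a log2 scale, on which 1 unit is a 2-fold difference. The spread between replicates was not alike in the groups. The median SD of the 36 autophagy genes was 0.115 in the 12 h control, 0.136 with Ra at 12 h, 0.282 in the 48 h control and 0.465 with Ra at 48 h. Replicate 2 of Ra at 48 h stood apart from the other 11 arrays. Its probe sets had an SD of 2.81, where the others had 3.09 to 3.14, and its 75th percentile was 6.30, against 7.01 to 7.21. It was also the lowest of the 3 Ra arrays at 48 h for 36 of 36 autophagy genes. Its median difference from the 12 h control mean was -0.64 over these genes and -0.65 over all tested genes. The share of all genes that were lowest on this array was not counted. Results of that group are given with and without it. Of 13 proximal tubule markers 3 were above the filter (SLC22A5, PAX8 and CDH6), while LRP2, CUBN, ANPEP and AQP1 were under it, and epithelial markers were above it in 5 of 5 cases. None of 5 endothelial, 5 immune and 5 distal nephron markers was above it, against 3 of 7 fibroblast markers (COL1A1, DCN and LUM) and 2 of 5 podocyte markers (SYNPO and PODXL).

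**Figure D1:**
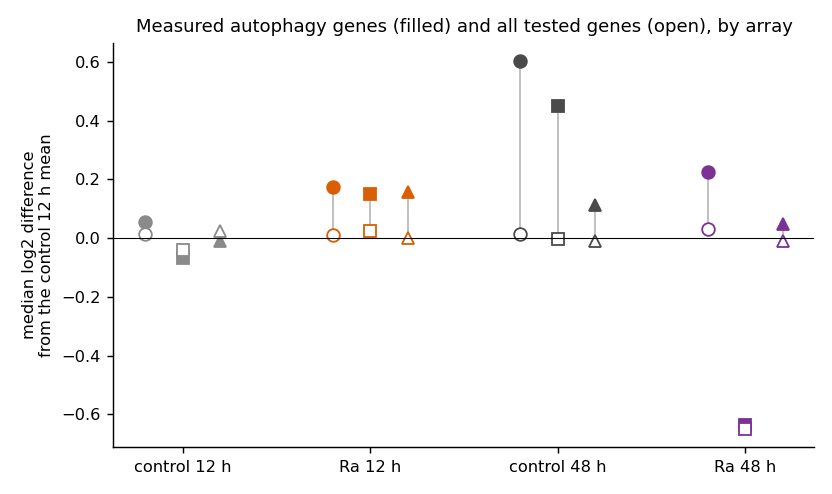
Median log2 difference from the 12 h control mean on each array, over the 36 autophagy genes (filled) and over all 10050 tested genes (open). Circle, square and triangle are replicates 1, 2 and 3. The autophagy median stands 0.59, 0.45 and 0.12 above that of all genes on the 48 h control arrays, and replicate 2 of Ra at 48 h is low for both.

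At 12 h, 8 autophagy genes rose with Ra and 1 fell. The 8 were the initiation genes ULK1 and RB1CC1, the lipid reader WIPI1, the ATG8 genes MAP1LC3B, GABARAP and GABARAPL1, and the cargo receptors SQSTM1 and NBR1. ATG16L1, which sets the site where ATG8 proteins are attached, fell. The test was limma on the 6 arrays of 12 h, with Benjamini-Hochberg adjustment over 10050 genes at 0.05. It compared the groups without using the replicate numbers. By this test 7.34% of all genes rose and 6.25% fell, and among the 36 measured autophagy genes the shares were 22.2% and 2.78%. The members' median difference was 0.11 log2 units, against 0.01 over all genes.

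In the initiation complex, 2 of 4 measured genes rose. ULK1, the kinase that starts autophagosome formation, measured 4.06, 4.62 and 4.84 on the control arrays and 5.49, 5.44 and 5.51 on the Ra arrays. The Ra values lay above all control values, and the difference was 0.97 ± 0.20 log2 units (SE, limma adjusted p = 0.0232). All 3 control values are under 5 log2 units, so ULK1 was tested through the groups where it is higher, and the size of its difference depends on GCRMA's background model. With the filter at 7 log2 units, which leaves ULK1 out, 7 of 33 members rose and 1 fell, and 17.3% of genes passed. RB1CC1, the scaffold FIP200 of the same complex, measured 10.86, 10.51 and 10.67 in control cells and 11.27, 11.19 and 11.11 with Ra. The groups did not overlap, and RB1CC1 was 0.51 ± 0.10 higher (limma adjusted p = 0.0205). ATG13, the adaptor of the kinase, differed by 0.18 and did not pass (limma adjusted p = 0.240), although its Ra arrays were above the control arrays. ATG101, the partner that stabilises ATG13, was on the other side at -0.31 and did not pass (limma adjusted p = 0.0836). ULK2 was too dim to be tested, with control values from 4.35 to 4.51 and Ra values from 4.83 to 5.16.

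None of the 6 measured genes of the PI3-kinase complex passed at 12 h. BECN1 (Beclin 1), PIK3C3 (the catalytic subunit VPS34) and PIK3R4 (VPS15) differed by 0.08, 0.04 and 0.03. ATG14, which directs the complex to autophagy, differed by 0.37 with no overlap between the groups (limma adjusted p = 0.0902). UVRAG, the subunit that can replace it, differed by -0.22, and AMBRA1, an activator that binds Beclin 1, by less than 0.01.

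WIPI1, a reader of the lipid that the PI3-kinase makes, was the single gene of the 6 membrane supply genes that passed. It measured 8.10, 7.93 and 8.48 in control cells and 9.03, 8.66 and 8.92 with Ra. The lowest Ra value was above the highest control value, and the difference was 0.70 ± 0.16, or 1.63-fold (limma adjusted p = 0.0312). WIPI2, which recruits ATG16L1, and the lipid transfer genes ATG2A and ATG2B differed by 0.26, 0.33 and 0.29 without passing. ATG9A, the membrane protein of the seeding vesicles, and VMP1, a scramblase of the endoplasmic reticulum, differed by 0.02 and -0.05.

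Among the 9 measured conjugation genes 1 passed. ATG16L1 measured 7.90, 7.69 and 7.70 in control cells and 7.31, 7.26 and 7.44 with Ra. All 3 Ra values were lower than all 3 control values, and the gene fell by 0.42 ± 0.11 log2 units (limma adjusted p = 0.0425). ATG10, the E2-like enzyme for ATG12, differed by 0.43 with no overlap between the groups but did not pass (limma adjusted p = 0.146). ATG12, ATG4C and ATG5 differed by 0.13, 0.04 and 0.02, and the proteases ATG4A and ATG4B, the E2-like ATG3 and the E1-like ATG7 by -0.17, -0.13, -0.15 and -0.09.

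Of the 4 ATG8 genes, whose products are attached to the autophagosome membrane, 3 rose. GABARAPL1 measured 7.95, 7.78 and 7.80 in control cells and 8.64, 8.68 and 8.93 with Ra. The groups lay far apart relative to their spread, with a difference of 0.91 ± 0.11, or 1.88-fold (limma adjusted p = 0.00652). MAP1LC3B, which encodes the widely used marker LC3B, measured 11.73, 11.53 and 11.64 in control cells and 12.09, 12.09 and 11.83 with Ra. It was 0.37 ± 0.09 higher, without overlap (limma adjusted p = 0.0399). GABARAP measured 11.83, 11.85 and 11.82 in control cells and 12.02, 12.08 and 12.03 with Ra. Its difference was small, 0.21 ± 0.05 or 1.15-fold, yet larger than the spread of either group (limma adjusted p = 0.0438). GABARAPL2, the fourth gene, differed by -0.03. Near-identical gene copies exist for GABARAPL1 and MAP1LC3B, and whether the probe sets tell the copies apart was not tested.

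SQSTM1 and NBR1, receptors that bind ubiquitinated cargo, rose among the 5 cargo receptors. SQSTM1, which encodes p62, measured 11.66, 11.48 and 11.47 in control cells and 12.47, 12.12 and 11.98 with Ra. Its groups did not overlap, and it was 0.65 ± 0.13 higher, or 1.57-fold (limma adjusted p = 0.0199). NBR1 measured 9.65, 9.51 and 9.43 in control cells and 10.02, 10.16 and 10.18 with Ra. It too was higher on every Ra array, by 0.59 ± 0.09 (limma adjusted p = 0.0112). OPTN (optineurin, a receptor for mitochondria and bacteria) differed by 0.34 (limma adjusted p = 0.111), CALCOCO2 (NDP52) by 0.14 and TAX1BP1 by 0.01. Of the fusion genes, STX17, the SNARE of the autophagosome, differed by -0.09 and EPG5, a tether to the lysosome, by 0.40, and neither passed.

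**Figure D2:**
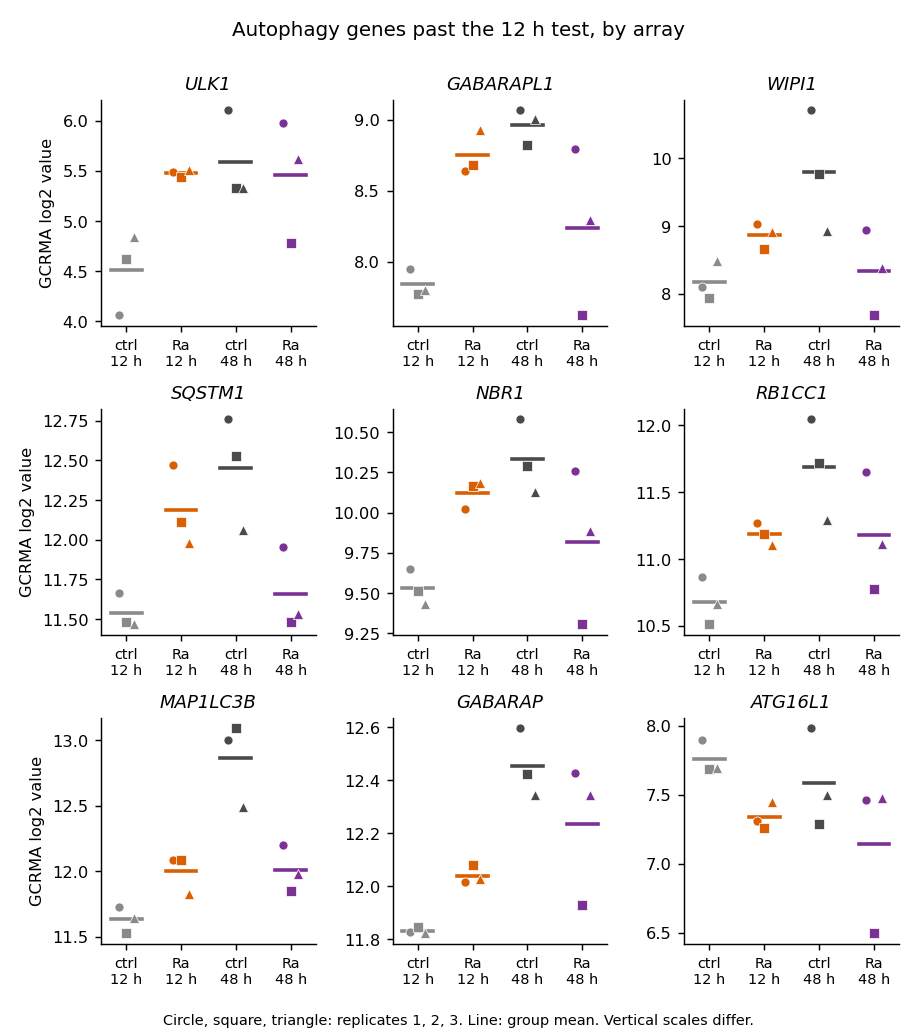
GCRMA log2 value on each of the 12 arrays for the 9 autophagy genes that passed the 12 h test, by group, with the line at the group mean and a vertical scale of its own for each gene. The Ra arrays at 12 h lie above the control arrays of 12 h for 8 genes and below them for ATG16L1, and at 48 h MAP1LC3B, GABARAPL1 and SQSTM1 are lower on the Ra arrays than on the control arrays.

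Other probe sets above the filter gave the genes that passed the same sign at 12 h. A second GABARAPL1 probe set differed by 1.15, further SQSTM1 probe sets by 0.89 and 0.37, and others by 0.75 for RB1CC1, 0.67 for WIPI1, 0.52 for NBR1, 0.19 for MAP1LC3B and -0.33 for ATG16L1. Among members that did not pass, probe sets opposite in sign to the one used were at 0.18, 0.17 and 0.30 for STX17, -0.17 for PIK3C3, 0.07 for ATG7, -0.07 for ATG5, and -0.02 for each of BECN1 and TAX1BP1.

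Counted without a model, the Ra and control arrays of 12 h did not overlap for 12 members with Ra higher and 3 with Ra lower, while 18.4% and 16.9% of all genes did so. The same-numbered arrays of 12 h deviated together, and with the replicate number as a block 12 members rose and 2 fell, where 12.7% of all genes rose and 10.7% fell. The 5 genes that the block added were ATG14, EPG5, OPTN and WIPI2, which rose, and ATG101, which fell, with limma adjusted p from 0.0239 to 0.0399. In the fit of all 12 arrays, which uses a single spread for groups that differ in spread, 0 members and 0.0299% of genes passed. By that limma fit the lowest adjusted p among the members was 0.364 and 6 members had an unadjusted p under 0.05, as did 7.47% of all genes. The 9 calls became 4, 2 and 4 without control replicate 1, 2 or 3, and 3, 2 and 7 without Ra replicate 1, 2 or 3. The shares of all genes that passed in those fits were 4.10%, 5.24% and 5.81%, and 3.30%, 2.92% and 13.8%. GABARAPL1 and NBR1 passed in all 6 of these fits, ULK1 in 3, RB1CC1 and SQSTM1 in 2, WIPI1, MAP1LC3B and ATG16L1 in 1 and GABARAP in 0. At 12 h 2 proximal tubule markers fell, PAX8 by 0.46 and SLC22A5 by 0.76, and 1 epithelial marker, EPCAM, was higher by 0.34 and passed. SLC22A5 averaged 5.66 in the 12 h control and 4.91 with Ra, which is under the 5 log2 units of the filter. It was tested mainly through the 12 h control, and the size of its fall depends on GCRMA's background model. Marker sums add the log2 values of all listed genes with a probe set, also of those under the filter. They cover 11 proximal tubule genes (3 above the filter), 5 epithelial genes (5 above) and 7 fibroblast genes (3 above). The sum of the proximal tubule markers was 50.8 to 51.7 in control cells and 49.5 to 50.3 with Ra. That of the epithelial markers was 55.8 to 56.1 and 56.4 to 57.3, and that of the fibroblast markers 36.9 to 38.5 and 38.4 to 39.5. The part of these in the autophagy result was not tested. In such bulk RNA, fewer cells of a kind and less RNA per cell cannot be told apart.

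The autophagy genes also differed between the control cells of 48 h and 12 h, which shows their level in culture without Ra. From 12 h to 48 h, 14 of the 36 rose and 1 fell (limma on the 6 control arrays). This fit too uses a single spread, for groups whose median SDs over the autophagy genes were 0.115 and 0.282. Among all genes 16.6% rose and 16.6% fell, against 38.9% and 2.78% of the autophagy genes. The median difference was 0.32, against 0.01 over all genes. The 14 were ULK1, RB1CC1, UVRAG, WIPI1, ATG2B, ATG3, MAP1LC3B, GABARAP, GABARAPL1, SQSTM1, NBR1, TAX1BP1, CALCOCO2 and EPG5, and PIK3R4 fell. Of the markers SLC22A5 fell by 0.86, KRT8 fell by 0.58 and EPCAM rose by 0.57 in the same limma fit (adjusted p = 0.0131, 0.0246 and 0.0282). The 48 h control mean of SLC22A5 was 4.80, again under the 5 log2 units of the filter. The 3′ minus 5′ difference of ACTB was 0.79 to 0.98 at 12 h and 0.90 to 1.19 at 48 h. The part of these in the autophagy result was not tested.

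Initiation genes ULK1 and RB1CC1 were 1.09 ± 0.29 and 1.01 ± 0.20 higher at 48 h (limma adjusted p = 0.0299 and 0.0116), the first again against 12 h control values under 5 log2 units. ULK1 measured 6.11, 5.33 and 5.33 on the 48 h control arrays and RB1CC1 measured 12.05, 11.72 and 11.29. Each of these values was above the 12 h control values of its gene. In the PI3-kinase complex UVRAG went from 6.37, 6.18 and 6.11 to 7.19, 7.18 and 7.06, a rise of 0.93 ± 0.13 (limma adjusted p = 0.00494). PIK3R4 moved the other way, from 10.36, 10.16 and 10.22 to 9.62, 9.72 and 9.89, a fall by 0.50 ± 0.12 log2 units (limma adjusted p = 0.0198).

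Lipid reader WIPI1 had the largest of the rises, 1.63 ± 0.42 or 3.09-fold, with 48 h control values of 10.71, 9.76 and 8.93 (limma adjusted p = 0.0263). Those 3 values were spread widely, and replicate 3 was the lowest of them. ATG2B, which feeds lipids to the growing membrane, rose from 7.37, 7.11 and 7.25 to 8.52, 8.27 and 8.52, by 1.19 ± 0.14 (limma adjusted p = 0.00311). ATG3, the E2-like enzyme that attaches ATG8 proteins, rose from 12.16, 12.06 and 12.17 to 12.97, 12.75 and 12.29. The groups were close at replicate 3 of 48 h, and the rise was 0.54 ± 0.17 (limma adjusted p = 0.0457). It was the single conjugation gene of 9 that passed.

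MAP1LC3B measured 13.01, 13.09 and 12.49 on the 48 h control arrays, GABARAPL1 measured 9.07, 8.82 and 9.01, and GABARAP measured 12.60, 12.42 and 12.34. All of these values lay above the 12 h controls, and the rises were 1.23 ± 0.16, 1.12 ± 0.13 and 0.62 ± 0.09 (limma adjusted p = 0.00408, 0.00310 and 0.00509). GABARAPL2 again did not pass, at 0.08.

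Of the 5 cargo receptors 4 rose. SQSTM1 measured 12.76, 12.53 and 12.06 on the 48 h control arrays and NBR1 10.58, 10.29 and 10.13, for rises of 0.91 ± 0.18 and 0.80 ± 0.14 (limma adjusted p = 0.0110 and 0.00870). TAX1BP1, which differed by 0.01 with Ra at 12 h, went from 11.62, 11.54 and 11.49 to 12.60, 12.32 and 12.18, by 0.82 ± 0.12 (limma adjusted p = 0.00536). CALCOCO2 went from 8.92, 8.67 and 8.82 to 9.90, 9.64 and 9.42, by 0.85 ± 0.15 (limma adjusted p = 0.00889). For both receptors the 2 times did not overlap. EPG5 rose from 8.59, 8.27 and 8.22 to 9.39, 9.92 and 9.76, by 1.33 ± 0.18 or 2.51-fold (limma adjusted p = 0.00408).

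**Figure D3:**
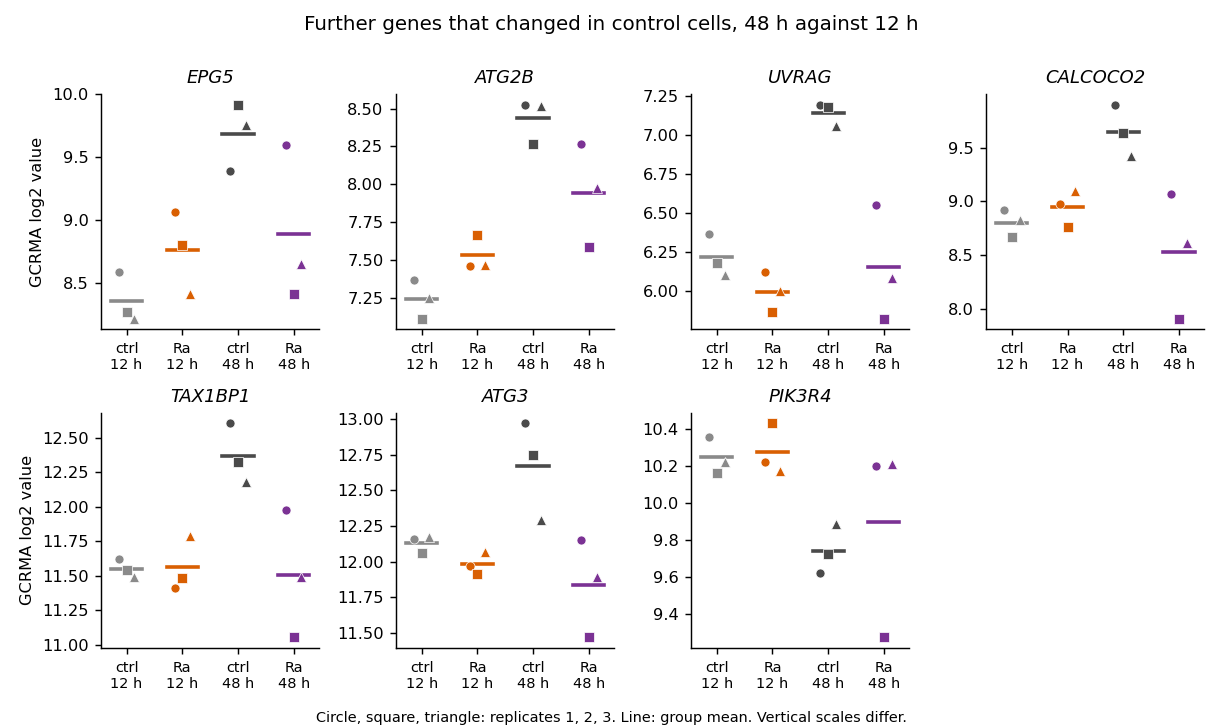
GCRMA log2 value on each of the 12 arrays for the 7 further autophagy genes that changed in control cells between 12 h and 48 h, with the line at the group mean and a vertical scale of its own for each gene. EPG5, ATG2B, UVRAG, CALCOCO2, TAX1BP1 and ATG3 are higher in the 48 h control than in the 12 h control, and PIK3R4 is lower.

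The control arrays of 12 h and 48 h did not overlap for 16 members with 48 h higher and 3 lower (PIK3C3, PIK3R4 and ATG9A), where 24.8% and 26.0% of all genes did so. The count of 15 was 13, with 0 falls, in the fit of 12 arrays, where 9.37% of genes rose and 10.1% fell. Leaving out 1 control array gave 9 to 19 calls, with 9 without 12 h replicate 3 (14.2% of all genes) and 19 without 48 h replicate 3 (45.6%). The 48 h control replicate 3 was the lowest of its group for 22 of 36 members, and the share of all genes was not counted. Without that array the members' median was 0.51. The control arrays of each time are the same ones used against Ra, so these differences and the Ra differences share arrays and are given side by side without a test of their likeness. With Ra against control at 12 h and control 48 h against control 12 h, the differences were 0.91 and 1.12 for GABARAPL1, 0.65 and 0.91 for SQSTM1, and 0.59 and 0.80 for NBR1. TAX1BP1 had 0.01 and 0.82, CALCOCO2 0.14 and 0.85, and UVRAG -0.22 and 0.93.

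For the genes that passed in control cells over time but not with Ra at 12 h, the Ra arrays of 12 h overlapped with the control arrays of 12 h, except for ATG2B. TAX1BP1 measured 11.41, 11.49 and 11.79 on those Ra arrays, CALCOCO2 measured 8.98, 8.76 and 9.10, and UVRAG measured 6.12, 5.86 and 6.00. ATG3 measured 11.97, 11.91 and 12.07, EPG5 measured 9.07, 8.80 and 8.42, and PIK3R4 measured 10.22, 10.43 and 10.17. ATG2B measured 7.46, 7.66 and 7.47, each above its 12 h controls. ATG12, which did not pass in either comparison, measured 9.59, 9.19 and 9.90 in control cells of 12 h and 9.68, 9.53 and 9.87 with Ra.

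At 48 h, 32 of 36 autophagy genes had a lower mean with Ra than in control cells, but 0 passed the limma test on the 6 arrays of 48 h, and 0% of all 10050 genes did. The lowest adjusted p by limma was 0.193 among the members (MAP1LC3B) and 0.168 over all genes. At an unadjusted p under 0.05 there were 0 members higher and 10 lower, against 4.02% and 13.4% of all genes. The median difference was -0.51, against -0.20 over all genes. Lower means were thus common outside the list too, and their share was not counted. The arrays did not overlap for 10 members with Ra lower and 1 higher, where 18.6% and 5.37% of all genes did so. The 10 were BECN1, UVRAG, ATG2B, ATG3, ATG12, MAP1LC3B, GABARAPL1, SQSTM1, TAX1BP1 and CALCOCO2, and the 1 was ATG9A.

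In the fit of 12 arrays, 7 members fell with Ra at 48 h and 0 rose, where 9.56% of all genes fell and 3.00% rose. They were UVRAG, WIPI1, ATG3, MAP1LC3B, SQSTM1, TAX1BP1 and CALCOCO2. That fit takes part of its spread from the quieter arrays of 12 h. It gave 0 calls without 48 h control replicate 1 or replicate 2, 9 without 48 h control replicate 3, and 16, 9 and 5 without Ra replicate 1, 2 or 3 of 48 h. In the same order 1.17%, 0.448%, 19.7%, 27.1%, 19.3% and 6.09% of all genes passed. Without replicate 2 of Ra, 2 of the 9 rose. At 48 h the summed proximal tubule markers were 48.7 to 50.7 in control cells and 50.9 to 51.6 with Ra, and the epithelial markers 55.6 to 57.9 and 53.4 to 56.7. The 3′ minus 5′ difference of ACTB, a sign of RNA quality, was 0.90 to 1.19 and 0.79 to 1.13. In the limma fit of 12 arrays CDH6 rose by 1.57 (adjusted p = 0.0145) and CDH1 fell by 1.48 (adjusted p = 0.0419). PAX8 and SLC22A5 differed by -0.08 and -0.10 and did not pass. COL1A1 differed by -1.02 without overlap and did not pass. The part of these values in the 48 h differences was not tested.

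CALCOCO2 measured 9.90, 9.64 and 9.42 in control cells and 9.07, 7.91 and 8.61 with Ra. Each Ra value was below each control value, and the difference was -1.12 ± 0.34 (limma adjusted p = 0.215 in the fit of 6 arrays and 0.0224 in that of 12). TAX1BP1 measured 12.60, 12.32 and 12.18 in control cells and 11.98, 11.05 and 11.49 with Ra, a difference of -0.86 ± 0.26 (limma adjusted p = 0.215 and 0.0244). SQSTM1 measured 12.76, 12.53 and 12.06 in control cells and 11.95, 11.48 and 11.53 with Ra, a difference of -0.79 ± 0.24 (limma adjusted p = 0.215 and 0.0264). All 3 receptors had their lowest value on Ra replicate 2. NBR1 overlapped at -0.52, with Ra values of 10.26, 9.31 and 9.89, and OPTN differed by -0.09.

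MAP1LC3B measured 13.01, 13.09 and 12.49 in control cells and 12.20, 11.85 and 11.98 with Ra. These groups were clearly apart, with a difference of -0.85 ± 0.21 (limma adjusted p = 0.193 and 0.0129). GABARAPL1 measured 9.07, 8.82 and 9.01 in control cells and 8.80, 7.62 and 8.29 with Ra, a difference of -0.73 ± 0.34 (limma adjusted p = 0.300 and 0.0720). Its highest Ra value was just under its lowest control value. GABARAP and GABARAPL2 overlapped, at -0.22 and -0.14, and the Ra values of GABARAP were 12.43, 11.93 and 12.34.

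UVRAG measured 7.19, 7.18 and 7.06 in control cells and 6.55, 5.82 and 6.08 with Ra, a difference of -0.99 ± 0.29 (limma adjusted p = 0.208 and 0.0172). Its control values were tight and the Ra values spread below them. ATG2B differed by -0.49, with Ra values of 8.27, 7.58 and 7.98 that lay below the control values. BECN1 differed by -0.57, ATG14 by -0.60, AMBRA1 by -0.32, PIK3C3 by -0.25 and PIK3R4 by 0.15 (Ra values 10.20, 9.28 and 10.21), and none of these passed in either fit. ATG3 measured 12.97, 12.75 and 12.29 in control cells and 12.16, 11.47 and 11.89 with Ra, a difference of -0.83 ± 0.25 (limma adjusted p = 0.215 and 0.0211). ATG12, the ubiquitin-like protein joined to ATG5, measured 9.92, 9.98 and 10.11 in control cells and 9.51, 8.70 and 9.52 with Ra. Its groups did not overlap, at -0.76 ± 0.29 (limma adjusted p = 0.255 and 0.0567).

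WIPI1 had the largest difference among the 7 that passed the fit of 12 arrays, -1.46 ± 0.49, with control values of 10.71, 9.76 and 8.93 and Ra values of 8.95, 7.68 and 8.38 (limma adjusted p = 0.231 and 0.0363). Its groups overlapped, since its highest Ra value was just above its lowest control value. ATG4A differed by about as much, -1.47 ± 0.63, but its Ra values ran from 4.44 on replicate 2 to 7.16 (limma adjusted p = 0.278 and 0.0731). ATG9A was the member with the largest positive difference, 0.57 ± 0.29, with control values of 6.49, 5.83 and 6.25 and Ra values of 6.80, 6.52 and 6.95 (limma adjusted p = 0.336 and 0.0922). All 3 of its Ra values were above the control values. ULK1 and RB1CC1, which had risen at 12 h, differed by -0.13 and -0.51, with Ra values of 5.98, 4.78 and 5.62 for ULK1 and 11.65, 10.78 and 11.12 for RB1CC1.

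The remaining members of 48 h overlapped between the groups, and none passed in either fit. ATG101 and ATG13 differed by -0.93 and -0.47, ATG2A and WIPI2 by -0.32 and -0.03, and ATG16L1 by -0.45. ATG16L1 measured 7.98, 7.29 and 7.50 in control cells and 7.46, 6.49 and 7.47 with Ra. ATG4C, ATG10, ATG5 and ATG7 differed by -0.53, -0.54, -0.29 and -0.11. EPG5 differed by -0.80, with Ra values of 9.60, 8.42 and 8.65, and STX17 by -0.65, while VMP1 and ATG4B differed by 0.26 and 0.05. Other probe sets gave the opposite sign at 48 h for ATG16L1 (0.75), ATG4B (-0.24), PIK3C3 (0.18) and WIPI2 (0.09 and 0.27), and the same sign for MAP1LC3B (-0.89), WIPI1 (-1.69), SQSTM1 (-0.80 and -0.19), GABARAPL1 (-0.71) and TAX1BP1 (-0.73 and -0.99).

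**Figure D4:**
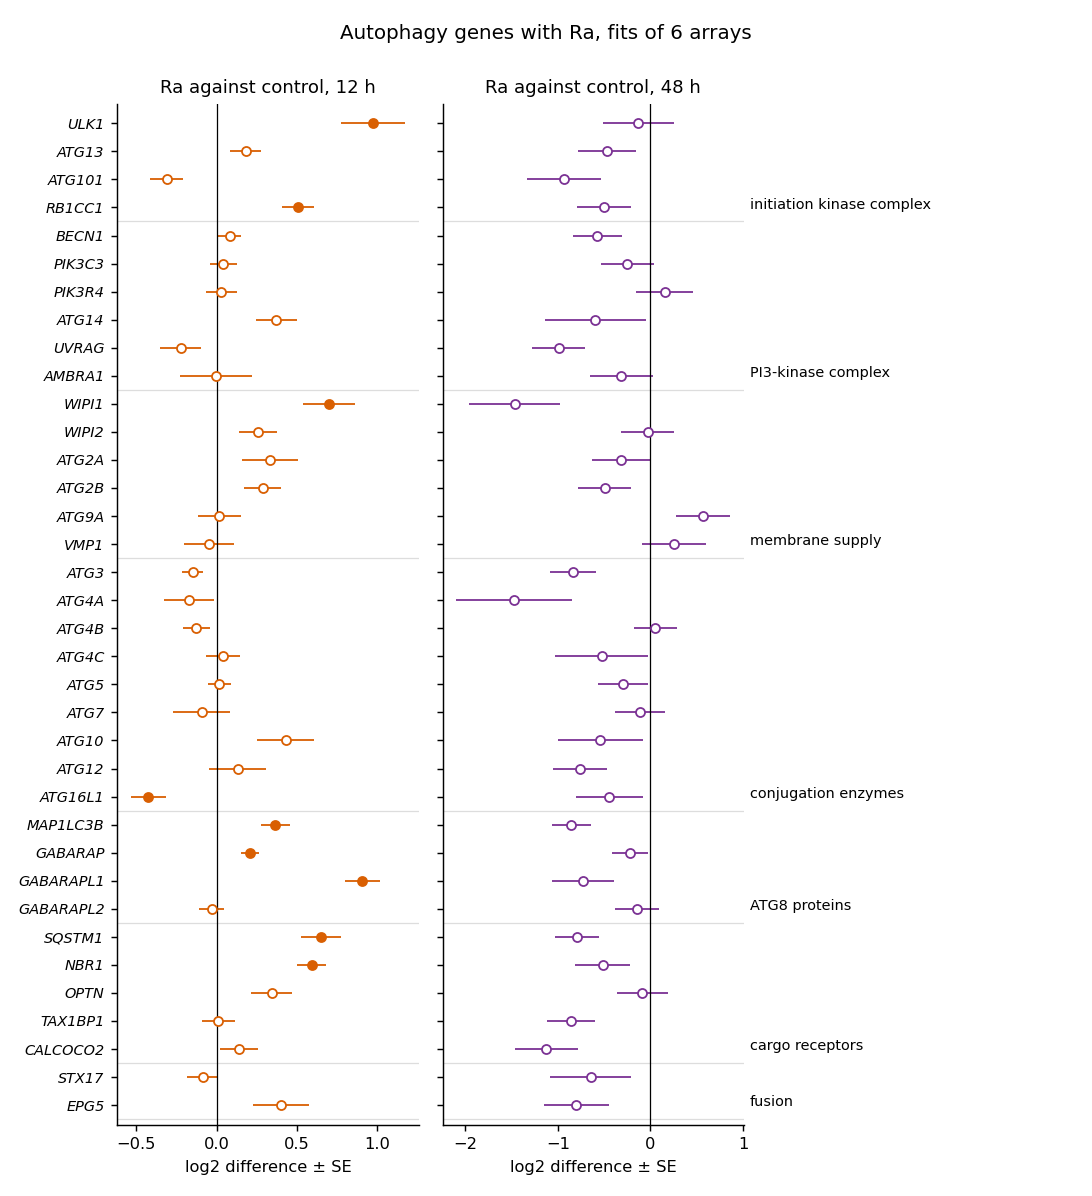
Log2 difference between Ra and control with its SE for the 36 measured autophagy genes in order of their role, from the limma fits of the 6 arrays of 12 h (left) and of 48 h (right), whose horizontal scales differ. Filled points passed at an adjusted p under 0.05, 9 at 12 h and 0 at 48 h. At 48 h 32 of 36 points lie below 0, where the median of all genes is also below 0, at -0.20.

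Part of the 48 h difference moved with replicate 2 of Ra and with the scaling of the arrays. Without that array the members' median was -0.15, with 24 genes lower and 12 higher, and the arrays did not overlap for 10 members with Ra lower and 3 higher, against 19.2% and 23.2% of all genes. After quantile normalization the median was -0.29, with 27 lower and 9 higher, and the non-overlapping members were 11 lower and 2 higher, against 17.1% and 17.4% of all genes. The median of all genes was 0.01 in each of these settings, in place of -0.20. The shares of all genes with a lower or a higher mean were not counted. On those quantile-normalized values 3 members fell in the limma fit of 6 arrays, MAP1LC3B by 0.73, TAX1BP1 by 0.71 and CALCOCO2 by 0.87 (adjusted p = 0.0484, 0.0458 and 0.0454), where 3.22% of genes fell and 3.15% rose. With each array centred on its median, CALCOCO2 alone passed among the members, with 3.24% of genes lower. ATG9A stayed positive on each of the 3 bases plotted, at 0.57 as deposited, 0.69 without the array and 0.82 after quantile normalization. ULK1, ATG7, OPTN, WIPI2 and GABARAPL2 went from negative to positive both without the array and after quantile normalization, and PIK3C3, ATG14 and ATG4C did so without the array.

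**Figure D5:**
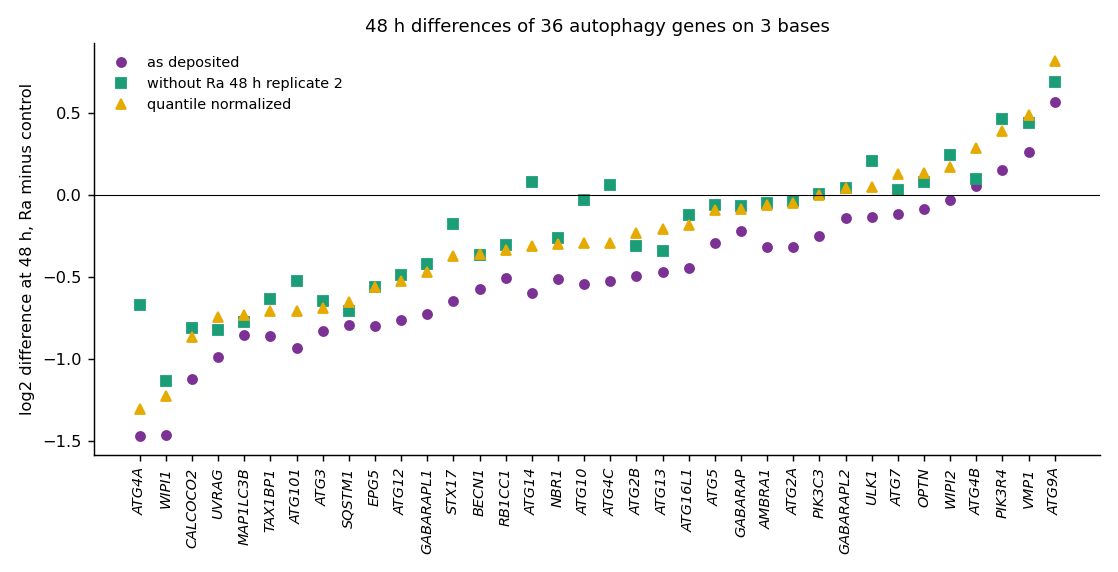
Log2 difference between Ra and control at 48 h for the 36 measured autophagy genes as deposited (circles), without replicate 2 of Ra (squares) and after quantile normalization of all arrays (triangles), ordered by the quantile-normalized value. The median is -0.51, -0.15 and -0.29 on the 3 bases, and WIPI1, CALCOCO2, UVRAG and MAP1LC3B lie under -0.7 on each.

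A change in the Ra effect from 12 h to 48 h was tested directly in the fit of 12 arrays, as the 48 h difference minus the 12 h difference. No member passed, and 0.0199% of all genes did. At an unadjusted p under 0.05, 16 members were lower and 0 higher, against 15.4% and 3.84% of all genes. The median was -0.65, against -0.19 over all genes. The lowest adjusted p among the members was 0.0726, reached by MAP1LC3B at -1.22 ± 0.23 and SQSTM1 at -1.45 ± 0.28, followed by GABARAPL1 at -1.64 ± 0.36 (0.0818) and WIPI1 at -2.17 ± 0.57 (0.108), all by limma. For ATG2B, GABARAPL1, MAP1LC3B and SQSTM1 the Ra arrays lay above the control arrays at 12 h and below them at 48 h without overlap at either time. Taken singly, 18.4% of all genes were higher without overlap at 12 h and 18.6% lower at 48 h. The share of all genes with both was not counted. The outcome of the test of the difference depended on single arrays of 48 h. There were 5 calls without control replicate 3, 11 without Ra replicate 1 and 3 without Ra replicate 2, each of them lower at 48 h, where 5.69%, 10.4% and 3.18% of all genes passed. The 3 without Ra replicate 2 were GABARAPL1 (-1.33), MAP1LC3B (-1.14) and SQSTM1 (-1.36).

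In Ra-treated cells the step from 12 h to 48 h had 0 members and 0% of genes past the limma test on 6 arrays. At an unadjusted p under 0.05, 0 members were higher and 2 lower, against 0.915% and 7.47% of all genes. The median was -0.28, against -0.21 over all genes and against 0.32 for the members in control cells. The arrays did not overlap for 1 member higher, ATG4B, and 8 lower, where 2.49% and 17.0% of all genes did so. ULK1, RB1CC1 and MAP1LC3B differed by -0.02, -0.01 and 0.01 between the Ra groups, while SQSTM1 differed by -0.53 without overlap. Without replicate 2 of Ra at 48 h the members' median was 0.02.

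Other genes of the pathway were taken from 4 lists. Beside their counts stand all genes, of which 7.34% rose and 6.25% fell at 12 h. At 48 h 9.56% of all genes fell in the fit of 12 arrays. Of 7 further core genes measured, WDR45, a lipid reader related to the WIPI genes, rose at 12 h by 0.82 ± 0.09 (limma adjusted p = 0.00570), while RUBCN, a negative regulator of the PI3-kinase complex, and TMEM41B, a scramblase that works with VMP1, differed by -0.37 and 0.35. At 48 h NRBF2, a subunit of the PI3-kinase complex, and TMEM41B fell in the fit of 12 arrays, by 1.11 and 1.17 (limma adjusted p = 0.0222 and 0.0448), and RUBCN differed by -1.06. Of 16 genes listed as further receptors 3 rose at 12 h (18.8%, against 7.34% of all genes). In the same list 1 fell (6.25%, as of all genes), and not all of its genes are receptors, PINK1 being a kinase. CCPG1, a receptor for the endoplasmic reticulum, was 1.02 ± 0.11 higher (limma adjusted p = 0.00570), and BNIP3L, a receptor for mitochondria, 0.67 ± 0.06 higher (limma adjusted p = 0.00477). The third, RTN3, was 0.36 higher, and SEC62 fell by 0.36, both receptors for the endoplasmic reticulum. RETREG1, of the same kind, differed by 0.55 without passing. At 48 h BCL2L13, a mitochondrial receptor, and SEC62 fell in the fit of 12 arrays, by 0.81 and 0.72, and the mitochondrial kinase PINK1 differed by -0.62. These 2 falls are 12.5% of the 16 genes of this list, near the 9.56% of all genes.

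None of 11 further fusion genes passed at 12 h, where YKT6, a SNARE, VPS11, a tethering subunit, and PLEKHM1, an adaptor, differed by -0.34, -0.18 and 0.14. VPS11 fell by 1.36 at 48 h in the fit of 12 arrays (limma adjusted p = 0.0287), and VPS33A and SNAP29 differed by -1.11 and -0.39. Of 19 regulators 1 rose and 2 fell at 12 h (5.26% and 10.5%), against 7.34% and 6.25% of all genes. RRAGD, a small GTPase that signals nutrients to mTORC1, was 1.27 ± 0.33 higher (limma adjusted p = 0.0449). DDIT4 (REDD1), an inhibitor of mTORC1 induced by stress, fell by 0.66 ± 0.11 (limma adjusted p = 0.0126), and SESN2, a sensor that also restrains mTORC1, fell by 0.51 ± 0.11 (limma adjusted p = 0.0259). PRKAA2, a catalytic subunit of AMPK, differed by 0.55. At 48 h 7 of the 19 fell in the fit of 12 arrays, led by SESN2 at -2.67, TRIB3 at -1.85 and DDIT4 at -1.68 (limma adjusted p = 0.0171, 0.00980 and 0.0241), where 9.56% of all genes fell. In control cells between 12 h and 48 h, these 3 rose by 2.17, 1.89 and 0.88, among 9 regulators that rose and 1 that fell, TP53INP1, where 16.6% of all genes rose and 16.6% fell. RTN3, SEC62 and, at 12 h, SESN2 are named because few genes passed, after their values were seen, as is TP53INP1.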

How the data were processed

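Total RNA of 12 HK-2 samples was hybridised to Affymetrix 3′ expression arrays. The authors deposited log2 values made with GCRMA, per the submitters' processing notes. The range of the values bears out the scale. GCRMA corrects the background by probe sequence, normalizes and summarises probe sets, and it shrinks low signals. The sources used here give neither its version nor the arrays normalized together. The 3 arrays per group limit the precision.

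Groups and replicates came from the labels. Of 54675 probe sets, 41097 had 1 gene symbol in the platform annotation, 1801 several and 11777 none. A probe set with 1 symbol had to reach 5 log2 units on 3 or more arrays, and the brightest of a gene was used, giving 10050 genes. limma 3.58.1 in R 4.3.3 was fitted with an intensity trend to the 6 arrays of each pair of groups, since the spread differed between groups. It was fitted to all 12 arrays for the difference of effects. Only the groups of 12 h were close in spread, so the other fits of 6 arrays also use a single spread for unlike groups. Benjamini-Hochberg adjustment covered all 10050 genes at 0.05. With 3 against 3 arrays an exact permutation test cannot go below a two-sided p of 0.1, so none was used. The code was tested on simulated data.

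Alternatives were another choice of probe set, no filter or one at 7 log2 units, quantile normalization, centring, no trend, robust moderation, array weights, a replicate block, the fit of 12 arrays and leaving out each array. Deviations from the group means correlated between same-numbered Ra and control arrays of 12 h (0.182, 0.421 and 0.344). Between differently numbered ones the correlations lay from -0.397 to -0.004. Deviations cancel within a group, so positive values for the same numbers push the others negative, and those are no separate sign of pairs. The numbers were taken as pairs in the replicate block, not in the main test of 12 h. At 48 h the 3 correlations of same-numbered arrays were 0.301, -0.219 and 0.097, without pairing. The members, lists and tests were chosen with earlier results of these data known. All 38 members are described, with every array value for those that passed a test on 6 arrays or differed at least 1.5-fold between Ra and control of the same time without overlap, and from each further list the 3 largest differences at each time.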

Additional observations from a re-analysis of the deposited data

How the results depend on the processing

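The 12 h count of 9 autophagy genes (1366 genes in all) kept within 1.5 times under the 8 other alternatives that used all 6 arrays. It was 2 (506 genes) with no filter, 14 (2351) with the replicate block, 0 (3) in the fit of 12 arrays and 2 to 7 leaving out an array. The 48 h count of 0 (0 genes) was 2 (307) with the filter at 7 log2 units, 3 (641) after quantile normalization, 1 (714) with centred arrays, 18 (4790) with array weights and 7 (1262) in the fit of 12 arrays. It was 0 leaving out any array and 0 with the replicate block (131 genes), where the numbers give no pairing. In the fit of 12 arrays it was 14 (3014) after quantile normalization, 13 (2863) with centred arrays and 0 to 16 leaving out an array. It was 6 without any 1 array of 12 h, 9 without control replicate 3, 16, 9 and 5 without Ra replicates 1, 2 and 3. The median at 48 h ran from -0.70 to -0.15 leaving out an array.

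For the difference between the times, 0 members (2 genes) became 2 (43) with the filter at 7 log2 units, 7 (944) after quantile normalization, 6 (856) with centred arrays, 21 (4464) with array weights, 1 (36) with the replicate block (SQSTM1), 0 (17) with robust moderation and 0 to 11 leaving out an array. Array weights per group gave 0 (7), and 3 (296) without Ra 48 h replicate 2, an alternative chosen after seeing the data, as were all changes to the fit of 12 arrays. The median was -0.39 with centred arrays and -0.82 to -0.41 leaving out an array. In control cells over time the 15 members (3334 genes) became 23 (5788) with array weights and 9 to 19 leaving out an array, with medians of 0.21 to 0.51. Without a filter 12 members (2091 genes) passed, 14 with the replicate block and 13 (1955) in the fit of 12 arrays. In Ra cells over time array weights gave 2 (521), the replicate block 0 (235), centred arrays 0 (41), and the median ran from -0.46 to 0.02 leaving out an array. Array weights turned the sign of WIPI2 at 48 h (0.35, adjusted p = 0.0397) and of ATG16L1 in the difference (0.58, adjusted p = 0.0262) by limma. The cause of these changes was not tested. The 12 h calls kept their sign in each setting. The medians did so wherever they were computed, except the median of Ra cells over time. For Ra against control and the difference between the times, no median was computed with array weights.

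At 48 h the spread of the Ra arrays limits what can be called, and levels under 5 log2 units depend on the background model.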
